A study of Mus musculus with 16 samples.

Results

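The circadian clock genes Clock, Arntl, Per1, Per2, Per3, Cry1, Nr1d1, Nr1d2, Dbp and Tef were examined in bulk RNA-seq of mouse knee joint cells. These 10 genes were taken by name from the 13733 genes listed in the table, all 10 were present, and all 10 passed the filter on low values (1 CPM or more, in 4 or more libraries), which 13173 genes passed. CPM, the read count of a gene scaled to a common library size, is the unit throughout, after the trimmed mean of M values (TMM) scaling of the authors. Each of the 4 groups held 4 replicates. They were WT D0 (uninjured wildtype), WT D7 (wildtype, 7 days after injury), Trem2-/- D0 and Trem2-/- D7 (the same states in mice lacking Trem2, a receptor of macrophages and other myeloid cells).

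All groups shared the C57BL/6 background, and the study's methods name male mice from the same supplier, with the knockout line carrying a germline Trem2em2Adiuj allele. Injury was a rupture of the anterior cruciate ligament by a single tibial compression of the right knee at 10 weeks of age. The labels give an age of 16 weeks for all samples, and their extraction text speaks of homogenized joints from control and diabetic (T1DM) mice, a condition that no sample here is labelled with, whereas the study's methods describe cells freed from the joint with collagenase at 37 °C, and these sources do not settle which applies to the libraries. The time of day at which joints were collected is not given in the sources used here, and for clock genes this bears on every comparison of groups. With no time stated, time of collection and group cannot be told apart. No source says whether the replicates were single mice or pools, and p-values measure only the spread between these libraries.

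The mammalian clock is a loop of transcription factors. CLOCK and BMAL1, the product of Arntl, pair and bind E-box sequences, and thereby drive the Per and Cry genes, Nr1d1, Nr1d2, Dbp and Tef. PER and CRY proteins return to block CLOCK and BMAL1, the REV-ERB receptors encoded by Nr1d1 and Nr1d2 repress Arntl through ROR elements, and DBP and TEF bind D-boxes. In many tissues the Arntl transcript therefore peaks at about the opposite time of day to Nr1d1, Dbp and the Per genes, and cartilage and synovial cells are known to keep such rhythms locally.

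The regulatory letters behind this wiring are shown for the members whose annotated start region held them. RefSeq promoter windows (GRCm38.p6) of 300 bases, 250 before and 50 after the start site, matched 9 of the 10 members in 14 windows; Per2 was not matched. Each stretch below is 120 bases, runs 5′ to 3′ on the strand of the gene, lies outside annotated exons, and has the motif in capitals. Per3 is shown for its pair of D-boxes, and Cry1, Per1 and Tef for an E-box, the element that CLOCK and BMAL1 bind.
Per3, chr4:151044766-151044885, minus strand: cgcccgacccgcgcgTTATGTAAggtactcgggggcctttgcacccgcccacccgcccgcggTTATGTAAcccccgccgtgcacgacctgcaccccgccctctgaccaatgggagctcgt
Cry1, chr10:85185069-85185188, minus strand: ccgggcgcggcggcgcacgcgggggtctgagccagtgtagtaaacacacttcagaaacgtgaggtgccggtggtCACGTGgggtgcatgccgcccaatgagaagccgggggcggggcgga
Per1, chr11:69098721-69098840, plus strand: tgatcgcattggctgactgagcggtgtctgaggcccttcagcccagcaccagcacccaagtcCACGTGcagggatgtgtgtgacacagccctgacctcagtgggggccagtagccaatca
Tef, chr15:81811214-81811333, plus strand: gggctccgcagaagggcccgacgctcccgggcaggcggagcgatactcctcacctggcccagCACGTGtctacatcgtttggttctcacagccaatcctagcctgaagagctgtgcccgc

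The D-boxes of Per3 began 205 and 158 bases before its start site. The E-box began 60 bases before the start site in Cry1, 166 in Per1 and 138 in this window of Tef, and another window of Tef held an E-box 127 bases upstream. Arntl held a ROR element 31 bases after an annotated start. The motifs were searched on both strands and do not share letters: E-box CACGTG, found in 7.15% of all 32817 mouse windows of this length, D-box TTATGTAA or TTACGTAA in 1.05%, ROR element TAGGTCA or TGGGTCA in 6.46%, and cyclic AMP element TGACGTCA in 1.79%. The windows of Clock, Dbp, Nr1d1 and Nr1d2 held none of these letters. These matches describe sequence and were not measured as bound sites.

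Library depth ranged from 11567073 to 32867818 reads on listed genes, at which 3 reads correspond to between 0.101 and 0.250 CPM, so that every member lay above this floor in every library. Leukocyte and fibroblast markers were found in all 16 libraries. The knockout label was checked on Trem2, which averaged 16.8 ± 5.08 CPM (SD, n = 4) in WT D7 and 4.27 ± 0.64 in Trem2-/- D7 without overlap, and 4.56 ± 1.40 in WT D0 and 1.80 ± 0.71 in Trem2-/- D0 with overlap. Reads of Trem2 thus remained in the knockout libraries.

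Per kilobase of exon, Nr1d1 and Per1 were the most abundant members and Dbp and Per3 the least. Averaged over the 16 libraries, the level per length was 36.3 CPM per kb for Nr1d1, 31.0 for Per1, 17.4 for Nr1d2, 14.7 for Cry1, 11.3 for Arntl, 5.26 for Per2, 5.22 for Clock, 4.05 for Tef, 0.924 for Dbp and 0.573 for Per3. Per2 lay above Clock in 8 of 16 libraries and Nr1d1 above Per1 in 10 of 16, so neither pair had a stable order. Tef lay above Dbp in all 16, and Cry1 above Arntl in 15. Dbp, the D-box activator usually named as a high-amplitude output of the clock, was therefore present at only 1.75 to 4.85 CPM (not divided by length). In addition, 539 bases, or 18.01% of the exonic length of Dbp, overlap Sphk2 on the opposite strand, and 263 bases of Nr1d1 overlap Thra. The labels name an unstranded kit and the study's methods a stranded one, and the counting setting is not given in the sources used here, so reads of these overlapping stretches are uncertain.

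**Figure D1:**
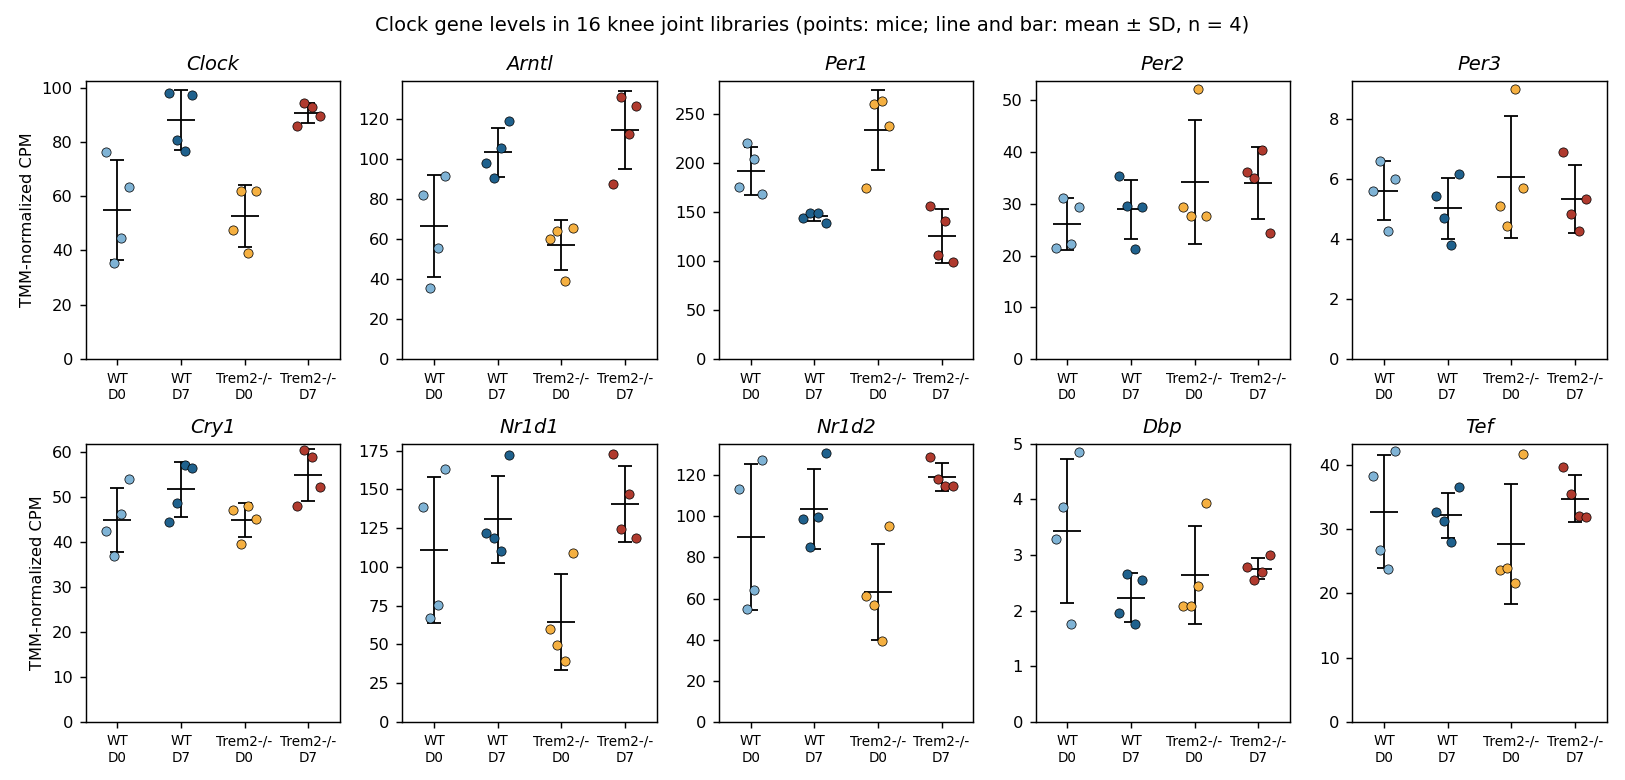
TMM-normalized CPM of the 10 clock genes in each of the 16 libraries (y axes, starting at 0) by group (x axes); points are libraries, and the line and bar give the mean and SD of 4. Clock and Arntl sit higher and Per1 lower at D7 than at D0 in Trem2-/- mice without overlap, whereas Dbp, Per2, Per3 and Tef overlap between D0 and D7 in each genotype.

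To determine how the clock genes differed after injury, D7 was compared with D0 within each genotype by limma over all 13173 genes, on log2(CPM + 1), a scale on which the change of low genes such as Dbp is understated. In Trem2-/- mice 5 of the 10 members passed an adjusted p of 0.05: Clock, Arntl, Nr1d1 and Nr1d2 were higher and Per1 was lower at D7. In WT mice 2 passed, Clock and Arntl, both higher. Of all genes tested, 15.9% were called higher and 12.6% lower in WT, and 26% higher and 27.2% lower in Trem2-/- mice. The shares of members called, 2 of 10 and 5 of 10, are to be read against these broad shifts, and with 10 members they lie near the background.

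Clock, the partner of BMAL1, rose in both genotypes. Its CPM in replicates 1 to 4 was 76.4, 35.6, 44.8 and 63.3 in WT D0 and 98.2, 80.8, 76.7 and 97.1 in WT D7. In Trem2-/- D0 it was 47.4, 62.0, 39.1 and 61.9, and in Trem2-/- D7 85.9, 94.2, 92.9 and 89.6. Every D7 library lay above every D0 library of its genotype, although in WT the highest D0 value and the lowest D7 value nearly met. The log2 fold change was 0.72 (SE 0.20, limma adjusted p = 0.0161) in WT and 0.80 (SE 0.20, limma adjusted p = 0.00377) in Trem2-/- mice.

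Arntl, which encodes BMAL1, also rose in both genotypes. Its CPM was 82.0, 35.5, 55.7 and 91.5 in WT D0 and 97.9, 90.5, 105 and 119 in WT D7. It was 59.7, 63.9, 38.8 and 65.6 in Trem2-/- D0 and 87.4, 131, 112 and 126 in Trem2-/- D7. The WT groups overlapped, since WT D0 replicate 4 lay above WT D7 replicate 2, and the knockout groups did not. The log2 fold change was 0.72 (SE 0.25, limma adjusted p = 0.0413) in WT and 1.00 (SE 0.25, limma adjusted p = 0.00332) in Trem2-/- mice.

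The call of Arntl in WT was close to the threshold. Over 26 alternative settings its WT adjusted p ranged from 0.0136 to 0.130 and it missed the threshold in 11, while its log2 fold change stayed between 0.45 and 0.90. Clock missed it in WT in 3 of the 26, with adjusted p up to 0.0611. The WT count of 2 members fell to 1, Clock, when any of WT D7 replicates 1, 2, 3 and 4 or Trem2-/- D7 replicates 2, 3 and 4 was left out. Without WT D0 replicate 3 both Clock (limma adjusted p = 0.0575) and Arntl (limma adjusted p = 0.107) missed the threshold, and Dbp, with a log2 fold change of -0.63, passed it (limma adjusted p = 0.0328). The count was 0 without WT D0 replicate 2, the library with the lowest Arntl and Clock, and 3 with Per1 added without Trem2-/- D0 replicate 1. In Trem2-/- mice the count stayed at 5 or 6 in every one of these fits.

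Per1, a repressor of the loop that is also induced within minutes by stress and glucocorticoid signals, was the member that fell. Its CPM was 176, 221, 204 and 168 in WT D0 and 144, 149.6, 149.7 and 139 in WT D7, and it was 175, 261, 263 and 238 in Trem2-/- D0 and 156, 107, 141 and 99.1 in Trem2-/- D7. All D7 libraries lay below all D0 libraries of their genotype. Per1 fell by 0.90 on the log2 scale in Trem2-/- mice (SE 0.16, limma adjusted p = 0.000266). In WT the log2 fold change of -0.39 (SE 0.16) missed the threshold with a limma adjusted p of 0.0718. The exact permutation test over the 4 and 4 libraries gave an unadjusted p of 0.0286, the smallest p that this design allows. Any gene without overlap reaches that value, and 22.2% of all genes tested did not overlap in WT. For Arntl in WT the same exact test gave 0.0571.

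Immediate-early genes respond to similar signals. Of the 10 tested genes of a list of immediate-early and dissociation-response genes, 5 were called lower at D7 in Trem2-/- mice and 1 in WT. Of all genes tested, 27.2% were called lower in Trem2-/- mice and 12.6% in WT. The summed level of the 10 listed genes ranged from 12981 to 25202 CPM in Trem2-/- D0 and 9586 to 12764 in Trem2-/- D7. In WT it ranged from 10346 to 14730 CPM at D0 and 8853 to 12586 at D7. The part of these genes in the result for Per1 was not tested.

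Nr1d1 and Nr1d2, the REV-ERB repressors, rose in Trem2-/- mice. Nr1d1 measured 60.2, 49.2, 39.3 and 109 CPM in Trem2-/- D0 and 172, 124, 147 and 118 CPM in Trem2-/- D7. It measured 139, 66.7, 75.5 and 163 CPM in WT D0 and 122, 119, 109.9 and 172 CPM in WT D7. The knockout groups did not overlap, while the 4 WT D7 libraries lay within or just above the wide WT D0 range.

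The log2 fold change of Nr1d1 was 1.21 (SE 0.31, limma adjusted p = 0.00412) in Trem2-/- mice and 0.31 (SE 0.31, limma adjusted p = 0.453) in WT. Nr1d2 had the same pattern. It measured 61.3, 56.6, 39.3 and 95.2 CPM in Trem2-/- D0 and 129, 118, 115 and 115 CPM in Trem2-/- D7, a log2 fold change of 0.97 (SE 0.27, limma adjusted p = 0.00647). In WT it measured 113, 54.8, 64.4 and 127 CPM at D0 and 98.5, 84.8, 99.7 and 131 CPM at D7, a log2 fold change of 0.27 (SE 0.27, limma adjusted p = 0.453). The ratio of Nr1d1 to Nr1d2 in CPM ranged from 1.173 to 1.279 in WT D0 and 1.10 to 1.40 in WT D7. It ranged from 0.869 to 1.14 in Trem2-/- D0 and 1.03 to 1.34 in Trem2-/- D7. The D0 groups of the genotypes nearly met but did not overlap, and how many other gene pairs do so was not counted. The ratio of Arntl to Nr1d1 did overlap at D0, with 0.532 to 0.737 in WT and 0.603 to 1.30 in Trem2-/- mice.

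The other 5 members did not pass the threshold in either genotype. Under alternatives Cry1 passed in Trem2-/- mice in 4 of 26 (lowest limma adjusted p = 0.0426), namely when the knockout groups were fitted alone or without WT D0 replicate 2, WT D0 replicate 4 or Trem2-/- D7 replicate 1, and Tef passed without Trem2-/- D0 replicate 4 (limma adjusted p = 0.0121). Cry1, a repressor that pairs with PER proteins, averaged 44.8 ± 7.15 CPM (SD, n = 4) in WT D0, 51.6 ± 6.10 in WT D7, 44.9 ± 3.76 in Trem2-/- D0 and 54.8 ± 5.81 in Trem2-/- D7, with log2 fold changes of 0.21 (limma adjusted p = 0.213) and 0.28 (limma adjusted p = 0.0672). Per2, a paralog of Per1, averaged 26.1 ± 4.95, 28.9 ± 5.78, 34.2 ± 12.02 and 34.0 ± 6.90 CPM in the same order of groups. Per3, the least abundant member per length, ranged from 3.79 to 9.01 CPM over all libraries with a log2 fold change of -0.14 in each genotype. Tef averaged 32.7 ± 8.85, 32.1 ± 3.52, 27.7 ± 9.40 and 34.8 ± 3.68 CPM. Dbp averaged 3.44 ± 1.30 CPM in WT D0 and 2.23 ± 0.44 in WT D7, a log2 fold change of -0.42 (limma adjusted p = 0.138), against 2.64 ± 0.88 in Trem2-/- D0 and 2.76 ± 0.19 in Trem2-/- D7, a log2 fold change of 0.07 (limma adjusted p = 0.785).

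**Figure D2:**
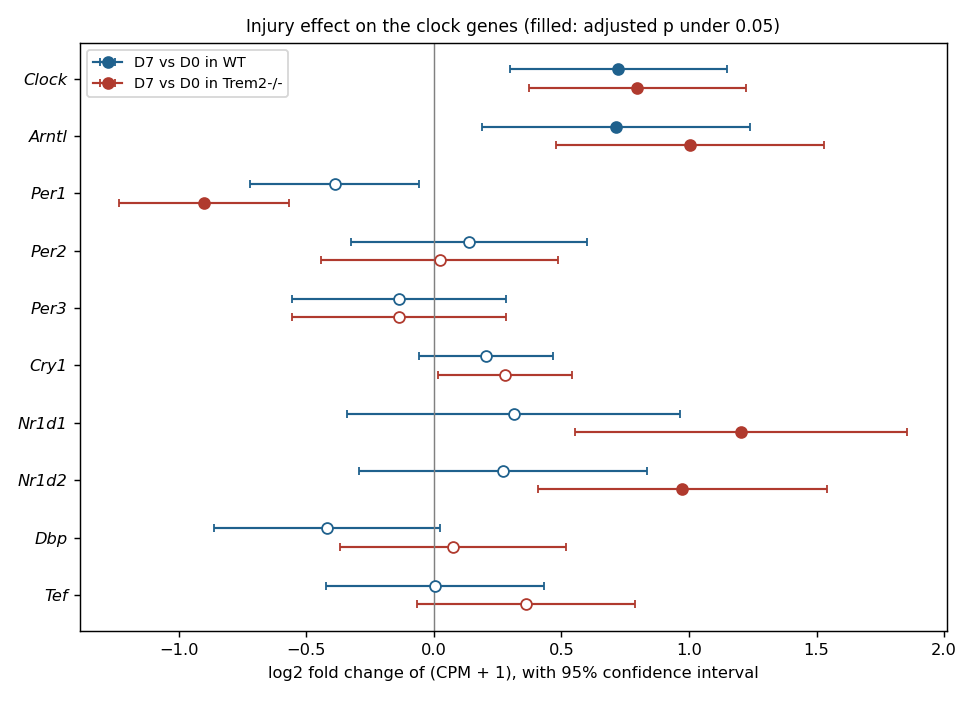
Log2 fold change of (CPM + 1) at D7 against D0 (x axis) for the 10 clock genes (y axis) in WT (blue) and Trem2-/- mice (red), with 95% confidence intervals; filled points have an adjusted p under 0.05. Clock and Arntl are filled and above 0 in both genotypes, Nr1d1 and Nr1d2 are filled in Trem2-/- mice and open in WT, and Per1 is filled at -0.90 in Trem2-/- mice and open at -0.39 in WT.

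Counted without the model, D7 and D0 did not overlap for 1 higher and 1 lower member in WT and for 4 higher and 1 lower member in Trem2-/- mice, beside 22.2% and 52.4% of all genes tested. The members' median log2 fold change was 0.17 in WT and 0.32 in Trem2-/- mice, beside -0.04 over all genes in each. No direction for the clock as a whole is read from these medians, since Per1 moved against Clock, Arntl, Nr1d1 and Nr1d2.

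Several lists of cell type markers moved with the same comparisons. The summed level of 7 fibroblast marker genes was 11488 to 55692 CPM in WT D0 and 85079 to 123152 in WT D7, and 8374 to 18118 in Trem2-/- D0 and 105651 to 152775 in Trem2-/- D7, with 5 of 7 called higher in WT and 6 of 7 in Trem2-/- mice. Of 6 leukocyte genes, 5 were called lower in WT and 6 in Trem2-/- mice, their sum going from 2678 to 5222 CPM to 1514 to 3335 CPM and from 3322 to 5728 CPM to 1197 to 1501 CPM. All 5 chondrocyte genes were called higher in both genotypes, and all 7 neutrophil genes, all 4 B cell genes and all 3 erythroid genes tested were called lower. Macrophage genes went the other way from the other leukocyte lists. Of 6, 5 were called higher in WT, where their sum went from 199 to 356 CPM to 457 to 619 CPM, and 4 higher and 1 lower in Trem2-/- mice, where it went from 273 to 312 CPM to 349 to 410.4 CPM. Of 6 skeletal muscle genes, 5 were called lower in Trem2-/- mice and 0 in WT. Of 4 endothelial genes, 0 were called in either genotype. None of the genes of these lists was at 0 in any library. In bulk samples fewer cells of a type and less RNA per cell cannot be told apart, and the part of these shifts in the clock gene results was not tested.

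The uninjured libraries differed among themselves in the same genes. Within WT D0, replicates 1 and 4 had more Clock, Arntl, Nr1d1, Nr1d2 and Tef than replicates 2 and 3. Their fibroblast sums were 26807 and 55692 CPM, against 11488 and 12370 CPM in replicates 2 and 3. Within Trem2-/- D0, replicate 4 had the highest Nr1d1, Nr1d2, Dbp and Tef and the highest fibroblast sum of 18118 CPM, and replicate 3 had the lowest Clock, Arntl, Nr1d1 and Nr1d2 and the lowest fibroblast sum of 8374 CPM. The part of cell makeup in this spread was not tested.

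Genes in and around the clock pathway were read from a list of 24 further genes, of which 23 were listed and 22 tested. The list, and the counts over it, include genes outside the core pathway, such as the glucocorticoid-induced Tsc22d3. At D7, 3 were called higher and 4 lower in WT, and 4 higher and 9 lower in Trem2-/- mice. Beside the 15.9% and 12.6% of all genes in WT and the 26% and 27.2% in Trem2-/- mice, these shares lie near the background. The median log2 fold change over the list was 0.03 in WT and 0.01 in Trem2-/- mice. When only the WT groups were fitted, 4 of the 22 passed the threshold.

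Npas2, Rora and Cry2 rose in both genotypes. Npas2, a paralog of Clock, averaged 13.0 ± 5.75 CPM in WT D0 and 36.0 ± 8.45 in WT D7, and 9.06 ± 3.03 in Trem2-/- D0 and 34.0 ± 4.18 in Trem2-/- D7. Its log2 fold changes were 1.48 (limma adjusted p = 0.00255) and 1.83 (limma adjusted p = 0.000110). Rora, a ROR receptor that activates Arntl, had log2 fold changes of 1.28 and 1.87, with limma adjusted p of 0.00299 and 4.49e-05. Cry2, the paralog of Cry1, had 0.84 and 0.96, with limma adjusted p of 0.0200 and 0.00385. For Npas2 and Rora no D7 library overlapped a D0 library of its genotype, and for Cry2 this held in Trem2-/- mice and not in WT.

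Several clock-associated genes fell. Hlf, the relative of Dbp and Tef, fell by 0.97 and 0.72 on the log2 scale in WT and Trem2-/- mice (limma adjusted p = 0.00645 and 0.0134). Ciart, a repressor of the CLOCK and BMAL1 pair, fell by 0.80 and 0.77 (limma adjusted p = 0.00402 and 0.00148). Timeless, which in mammals acts largely in DNA replication, fell by 0.66 and 0.98 (limma adjusted p = 0.0191 and 0.000557).

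Tsc22d3, a glucocorticoid-induced gene, fell by 0.80 in Trem2-/- mice (limma adjusted p = 0.00154), with a WT log2 fold change of -0.11 (limma adjusted p = 0.662). Its level in Trem2-/- D0, 200.9 ± 66.8 CPM, was higher than that of WT D0, 135 ± 21.0 CPM. The log2 difference was 0.53 (limma unadjusted p = 0.00814, limma adjusted p = 0.9996). The ranges, 113 to 161 CPM in WT D0 and 165 to 301 CPM in Trem2-/- D0, nearly met but did not overlap (exact permutation p = 0.0286). Tsc22d3 fell further after injury in Trem2-/- than in WT mice, by a log2 difference of -0.69 (limma unadjusted p = 0.0140, limma adjusted p = 0.579). The study's rule on unadjusted p, given below for genotype and interaction, called Tsc22d3 in both comparisons. Neither call held after adjustment. Fkbp5 and Klf9, other glucocorticoid-responsive genes of the list, were not called after injury in either genotype. The log2 fold change of Fkbp5 was -0.10 in Trem2-/- mice (limma adjusted p = 0.583) and 0.03 in WT (limma adjusted p = 0.900). For Klf9 it was 0.35 (limma adjusted p = 0.159) and 0.23 (limma adjusted p = 0.404). The part of glucocorticoid signals was not tested.

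**Figure D3:**
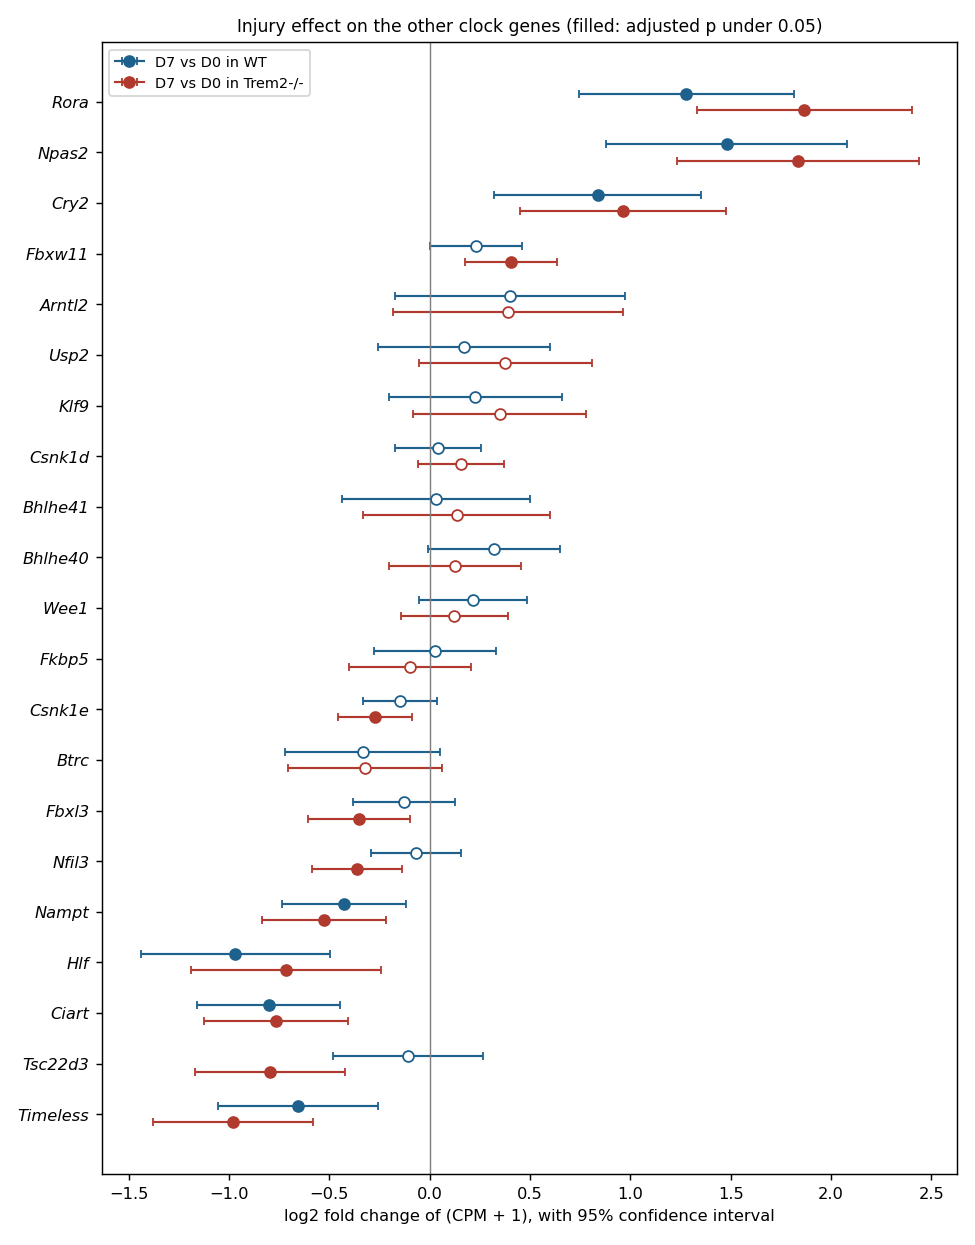
Log2 fold change of (CPM + 1) at D7 against D0 (x axis) for tested genes of the wider clock list (y axis), in WT (blue) and Trem2-/- mice (red), with 95% confidence intervals; filled points have an adjusted p under 0.05. Rora, Npas2 and Cry2 are filled above 0 and Timeless, Ciart, Hlf and Nampt filled below 0 in both genotypes.

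Genotype was compared next, since the study used these libraries to compare Trem2-/- with WT joints. The rule of the study was applied, an unadjusted p under 0.05 with a change of more than 0.32 on the log2 scale. At D7 none of the 10 members was called by limma under this rule, none had an unadjusted p under 0.05, edgeR and voom called none, and the limma adjusted p ranged from 0.790 to 0.975. The same rule called 1.18% of all genes higher and 4.53% lower, and 8.33% did not overlap between genotypes. No gene of the table had an adjusted p under 0.05, beside 958 with an unadjusted p under 0.05.

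The D7 differences were small for every member, and their intervals set the sizes that remain possible. The log2 difference of Trem2-/- minus WT was 0.05 for Clock (95% confidence interval -0.38 to 0.47), 0.14 for Arntl (-0.39 to 0.66) and 0.11 for Nr1d1 (-0.54 to 0.76). For Per1 it was -0.24 (-0.57 to 0.10). Without Trem2-/- D7 replicate 1, which had the highest Per1 and the lowest Arntl of its group, Per1 was called lower with a difference of -0.35. All 10 members overlapped between the genotypes at D7.

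At D0, Nr1d1 was the member called by the study's rule, with 111 ± 47.2 CPM (SD, n = 4) in WT and 64.4 ± 30.8 in Trem2-/- mice. Its log2 difference was -0.78 (SE 0.31, limma unadjusted p = 0.0218, limma adjusted p = 0.9996). The groups overlapped, as Trem2-/- D0 replicate 4, at 109 CPM, exceeded WT D0 replicates 2 and 3, and the exact permutation p was 0.143. The rule called 0.782% of all genes higher and 1.37% lower, and 0.979% did not overlap. No gene had an adjusted p under 0.05, beside 385 with an unadjusted p under 0.05.

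The D0 call depended on single libraries. The count was 0 without WT D0 replicate 1 or 4 or without Trem2-/- D0 replicate 2 or 3. It was 2 on leaving out WT D0 replicate 2 or Trem2-/- D0 replicate 1, and 3 without WT D0 replicate 3 or Trem2-/- D0 replicate 4. It was also 0 when only the D0 groups were fitted. The other members had log2 differences from -0.49 for Nr1d2 to 0.34 for Per2.

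**Figure D4:**
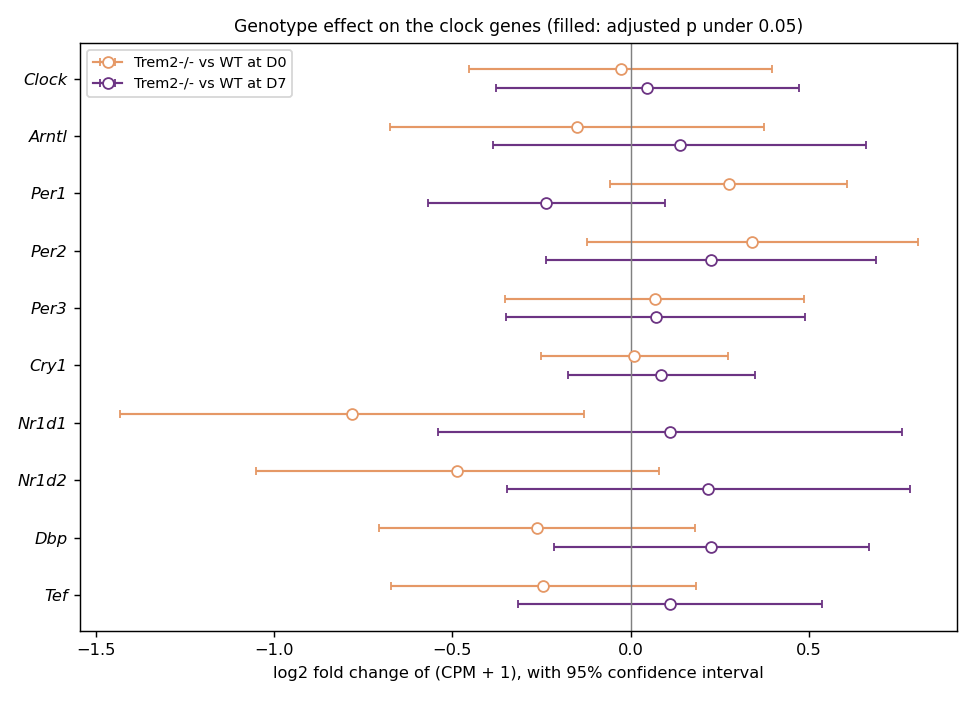
Log2 difference of (CPM + 1), Trem2-/- minus WT (x axis), for the 10 clock genes (y axis) at D0 (orange) and D7 (purple), with 95% confidence intervals; no point has an adjusted p under 0.05. The interval of Nr1d1 at D0 lies below 0, around -0.78, and every other interval includes 0.

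Whether injury acted differently in the genotypes was asked of the interaction term. Per1 was the member called, as it fell further after injury in Trem2-/- than in WT mice, by a log2 difference of -0.51 (SE 0.22, limma unadjusted p = 0.0347, limma adjusted p = 0.595). Across all genes 2.77% were called higher and 5.02% lower, none had an adjusted p under 0.05, and 1075 had an unadjusted p under 0.05. For Nr1d1 the difference in injury effect was 0.89 (SE 0.43, limma unadjusted p = 0.0567) and for Nr1d2 0.70 (SE 0.38, limma unadjusted p = 0.0804). With other settings the interaction rule called Nr1d1 in 6 of 25, among them quantile normalization (limma unadjusted p = 0.0444), and Nr1d2 in 4 of 25. Per1 lost its call in 10 of 25, quantile normalization among them (limma unadjusted p = 0.0873). The lowest adjusted p over these settings was 0.221 for Nr1d1, 0.226 for Nr1d2 and 0.227 for Per1, so a difference between the genotypes was not established for these members.

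The interaction count also turned on single libraries. It was 0 without WT D7 replicate 2 or 3, WT D0 replicate 1 or 4, Trem2-/- D7 replicate 2 or 4 or Trem2-/- D0 replicate 2 or 3. It was 2 without WT D7 replicate 4, where Nr1d1 joined Per1, and 3 if WT D0 replicate 2 was left out, where Nr1d1 and Nr1d2 did. It was 4 without WT D0 replicate 3 (Per1, Nr1d1, Nr1d2 and Dbp) and 4 without Trem2-/- D0 replicate 4 (Nr1d1, Nr1d2, Dbp and Tef, with Per1 lost). The interaction contrast, the injury contrasts and the genotype contrasts use the same 4 groups, so their values are not independent of each other.

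Clock phase was then looked at within groups, because no collection time was given. For each library the deviation of log2(CPM + 1) from its group mean was taken, and Arntl was related to each of the other 9 members over the 16 libraries by 100000 permutations within groups, two-sided. Clock rose and fell with Arntl (Pearson r = 0.85, permutation adjusted p = 0.0246, Spearman rho = 0.82, permutation adjusted p = 0.0451). Nr1d2 had r = 0.81 (permutation adjusted p = 0.0257) and rho = 0.77 (permutation adjusted p = 0.0623). Without WT D0 replicate 2 and Trem2-/- D0 replicate 3, the libraries farthest from the median of Arntl, r was 0.70 for Clock and 0.67 for Nr1d2. These relations are not particular to clock genes. By the same deviations, genes outside the clock lists, such as Lrig1 (r = 0.96) and Rai14 (r = 0.95), followed Arntl more closely. The share of all genes with an r as high as that of Clock or Nr1d2 was not counted.

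Per1 leaned the other way, with r = -0.63 (permutation p = 0.0174, adjusted p = 0.0520) and rho = -0.63 (permutation p = 0.0216, adjusted p = 0.0649), and r = -0.57 without the same libraries. The relation of Per1 passed the adjusted threshold after quantile normalization (r = -0.75) and after median-of-ratios rescaling (r = -0.66). Nr1d1, which in a rhythm opposite to Arntl would deviate against it, had r = 0.66 (permutation adjusted p = 0.120) and rho = 0.65 (permutation adjusted p = 0.107), falling to 0.46 without those libraries. Per2 had r = -0.50, which became -0.17 without them, and Per3 had r = -0.40, which became -0.002. The r of Cry1 was 0.50, of Tef 0.56 and of Dbp 0.19. For Per2, Per3, Cry1, Tef and Dbp the permutation adjusted p of r ranged from 0.120 to 0.681. Their rho, in that order, was -0.48, -0.21, 0.46, 0.65 and 0.21, with permutation adjusted p from 0.107 to 0.522.

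The r of Arntl with the REV-ERB genes took different values on the 2 days, and this difference was not tested. Arntl also spread less at D7, with a log2 SD of 0.17 in WT and 0.26 in Trem2-/- mice, against 0.61 and 0.35 at D0. For Nr1d2 these were 0.26 and 0.08 at D7, against 0.59 and 0.52 at D0. The part of this narrower spread in the values of r was not tested. Among the 8 D0 libraries r was 0.83 for Nr1d1, 0.90 for Nr1d2 and 0.92 for Clock, and among the 8 D7 libraries it was -0.22, 0.28 and 0.40. For Per1 it was -0.61 at D0 and -0.81 at D7. In WT D0 the replicates with high Arntl, Nr1d1 and Nr1d2 also had a high fibroblast sum, as given above. In Trem2-/- D0 this held less closely for Arntl. Replicate 4, with the highest sum, had the highest Arntl, 65.6 CPM. Replicate 2 had 63.9 CPM with a sum of 11328 CPM, and replicate 1 had 59.7 CPM with a sum of 12931 CPM. The part of the fibroblast sum in the correlation was not tested.

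**Figure D5:**
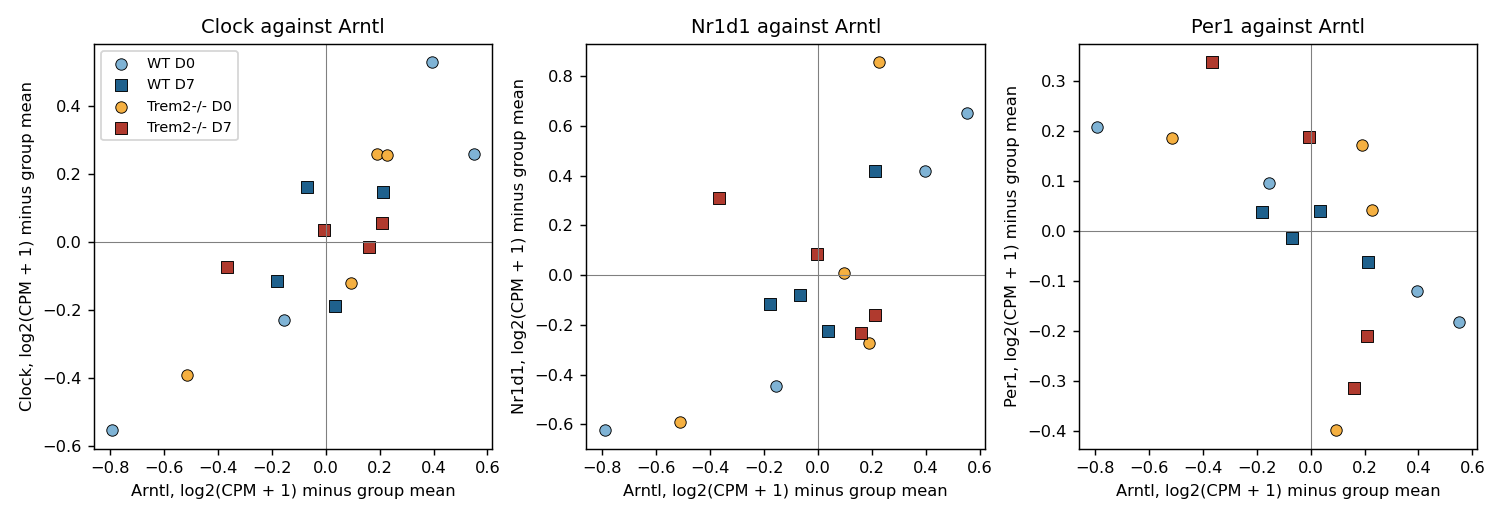
Deviation of log2(CPM + 1) from the group mean for Clock, Nr1d1 and Per1 (y axes) against that for Arntl (x axes), with a point for each of the 16 libraries; circles are D0 and squares D7. Clock increases with Arntl (r = 0.85) and Per1 decreases (r = -0.63). For Nr1d1, r is 0.83 over the D0 circles and -0.22 over the D7 squares, a difference that was not tested.

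The ratio of Arntl to Per1 in CPM set these genes against each other within a library. It ranged from 0.161 to 0.544 in WT D0, from 0.605 to 0.853 in WT D7, from 0.147 to 0.341 in Trem2-/- D0 and from 0.560 to 1.28 in Trem2-/- D7. Every D7 library of either genotype lay above every D0 library, although the highest D0 ratio, 0.544, and the lowest D7 ratio, 0.560, nearly met. The ratio is built from the Arntl and Per1 values given above and is not a separate result. A ratio within a library shows that Arntl and Per1 changed unequally, and does not by itself say which of them moved.

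By the same deviations, the genes most like Arntl among 10551 genes that averaged 5 CPM or more were Lrig1 (r = 0.96), Rtn4 (0.96), Slc30a4 (0.96), Map4k4 (0.96) and Rai14 (0.95), over 16 libraries. Those most like Dbp among 10552 were Rptor (0.88), Garem (0.82), Prg4 (0.80), Usp24 (0.80) and Atxn2 (0.79). These are the highest of many correlations and are given as descriptions. Prg4, which encodes lubricin of the joint surface, is also in the fibroblast marker list.

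The members lie on different chromosomes except for a pair on chromosome 7 and a pair on chromosome 11, by the GENCODE annotation of GRCm38. Clock spans chr5:76209868-76304792, Arntl chr7:113207465-113314126, Per1 chr11:69095217-69109960, Per2 chr1:91415982-91459324 and Per3 chr4:151003652-151044665. Cry1 spans chr10:85131700-85185064, Nr1d1 chr11:98767932-98775333, Nr1d2 chr14:18204054-18239127, Dbp chr7:45705088-45710203 and Tef chr15:81802421-81826863.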

How the data were processed

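Cells from knee joints were profiled by bulk RNA-seq in 16 libraries, 4 per group by genotype and injury label. Per the labels, the authors aligned reads with STAR to mm10, counted them with featureCounts and scaled them by TMM in edgeR to give the deposited signal values. Versions, annotation and strand setting are not given in the sources used here. The deposited values are CPM; all were whole multiples of 1 read (within 0.1 reads), so reads were recovered for edgeR and voom.

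Genes reaching 1 CPM in 4 or more libraries were tested with limma 3.58.1 (trend) in R 4.3.3 on log2(CPM + 1), 4 groups as a single factor, with Benjamini-Hochberg adjustment over 13173 genes. Calls used an adjusted p under 0.05 for injury, and the study's rule (unadjusted p under 0.05, log2 change over 0.32) for genotype and interaction. Alternatives were pseudocounts of 0.1 and 5, other filters and scalings, fits of only the groups compared, a replicate block, edgeR 4.0.16, voom and leaving out each library. The test was checked on simulated counts with the same dispersion in all genes and groups. That check does not cover groups of unequal spread, such as those of Arntl (log2 SD 0.61 in WT D0 and 0.17 in WT D7). All members are named in every contrast. Of the wider clock list, the 3 called genes of largest change per injury contrast and direction are named, with Fkbp5 and Klf9 beside Tsc22d3. The 5 genes most like Arntl and Dbp are also named. Members and lists were chosen with earlier results of these data known. Fcgr1, listed more than once, was counted once. The study's single-cell and flow cytometry data were not used here. The values of a gene of the wider clock list are not reported here, and counts over that list include it.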

Additional observations from a re-analysis of the deposited data

Results flagged for a closer look

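In 40 sets of 4 replicates (10 members in 4 groups), 2 held a library far from the other 3 by Dixon's ratio, and chance alone gives about 2. Per2 in Trem2-/- D0 replicate 3 measured 52.2 CPM against 27.6 to 29.4 in the other 3 libraries, with a gap of 0.924 of the range. Tef in Trem2-/- D0 replicate 4 measured 41.7 CPM against 21.6 to 23.9, with a gap of 0.886 of the range. The injury effect on Per1 differed between genotypes by -0.51 on the log2 scale under the limma interaction term (unadjusted p = 0.0347, adjusted p = 0.595).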

How the results depend on the processing

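Clock, Arntl, Nr1d1, Nr1d2 and Per1 kept their direction and an adjusted p under 0.05 for D7 against D0 in Trem2-/- mice under all 26 alternatives. In WT, 2 members became 0 with only the groups compared and 1 with edgeR, and 0 to 3 when a library was left out; 7 wider clock genes became 4 with only the groups compared. For Trem2-/- against WT, leaving out a library gave 0 to 1 members at D7 and 0 to 3 at D0, where only the groups compared gave 0. The interaction count of 1 became 0 at a fold change over 1.5 and ranged from 0 to 4 without a library. With quantile normalization it stayed at 1, but Nr1d1 took the place of Per1. The causes were not tested.

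Whether replicate numbers pair the samples is not settled. Deviations were correlated for same-number pairs (24 pairs, r from -0.51 to 0.41, 11 over 0.1). Pairs of different numbers were not computed, so these values have no reference. With the replicate block, members called were 2 at D0 between genotypes (Nr1d1 and Nr1d2) and 3 in the interaction (Per1, Nr1d1 and Nr1d2), and the other counts did not move by over 1.5 times.

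Signs near 0 turned. Tef in WT was -0.0117 with quantile normalization and -0.0269 with edgeR, and -0.13 to 0.14 without a library. Per2 in Trem2-/- mice was -0.00368 and -0.00708, and -0.067 to 0.24 without a library. The Per3 interaction was -0.00574 with a pseudocount of 5 and -0.0157 with edgeR, and -0.11 to 0.18 without a library. Without a library, Per3 ranged from -0.25 to 0.046 for injury in Trem2-/- mice, and for genotype from -0.042 to 0.16 at D7 and -0.11 to 0.18 at D0. Clock ranged from -0.017 to 0.10 at D7, -0.21 to 0.15 at D0 and -0.10 to 0.26 in the interaction. Cry1 ranged from -0.077 to 0.10 at D0 and -0.016 to 0.16 in the interaction, Arntl from -0.41 to 0.033 at D0, and Per2 from -0.25 to 0.0998 in the interaction.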
